A study of Mus musculus with 24 samples.

Results

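Kupffer-like cells (KC-LCs, grown out of liver) were compared with peritoneal macrophage-like cells (PM-LCs, grown out of peritoneal lavage), because these were the only sequenced groups of the study that were cultured in the same medium. The comparison used 6 of the 24 libraries, 3 per group, and every library that the labels place in these groups was included. Both groups came from female C57BL/6J mice of 8 to 12 weeks with no transgene or treatment, and both were kept for 14 days in polyethylenimine-coated flasks with 20 ng/ml M-CSF, 3% oxygen and 4.5 g/l glucose, with a partial medium change on day 2. The 3 libraries of sorted Kupffer cells (KCs) and the 3 of sorted peritoneal macrophages (PMs) from mice of the same strain, sex and age served as the reference for what separated both populations in the animal. The groups were not alike in everything else. Livers were digested with enzymes and run through a Percoll gradient, and 1 liver went into a flask, whereas the peritoneum was flushed with PBS and 3 mice were pooled per flask. Organ, preparation and pooling cannot be told apart. The cultured cells were not sorted, so any cell that survived the culture contributed RNA. Sorted KCs were gated on CD45, CD11b, F4/80 and TIM-4 and sorted PMs on CD45, CD11b, F4/80 and CD115, so the genes of these proteins are not results between the sorted groups.

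Kupffer cells line the liver sinusoids and clear particles, red cells and complement-coated microbes. The transcription factors Id3, Nr1h3 (LXR-alpha) and Spic are known to hold their program, with the lectin Clec4f and the complement receptor Vsig4 as surface markers. Large peritoneal macrophages depend on Gata6, which retinoic acid from the surrounding mesothelium induces, and are known for arginase, coagulation factors and the B cell chemoattractant Cxcl13. M-CSF, the ligand of Csf1r, keeps both populations alive and drives macrophages to divide.

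The 6 cultured libraries held 35597502 to 47105111 counted reads (29569486 to 47105111 over all 24), so 3 reads in a cultured library correspond to 0.0720 to 0.0969 CPM. CPM are read counts scaled to the size of the library, here with TMM factors over all 24 libraries. A list of 16 pan-macrophage genes was detected in both cultures, with a summed level of 33169, 59646 and 70774 CPM in KC-LCs 1 to 3 and of 43401, 51468 and 50656 CPM in PM-LCs 1 to 3, and none of its members was called with edgeR (0 of 16 at an unadjusted p under 0.05, 0 with DESeq2 and 0 with limma-voom). Csf1r measured 2019, 1888 and 2668 CPM in KC-LCs and 1441, 808 and 2338 CPM in PM-LCs, and the ranges overlapped. Libraries 1 of the KC-LCs and 2 of the PM-LCs stood apart. In KC-LC replicate 1 Apoe, an apolipoprotein that macrophages secrete, was at 265 CPM, against 14102 and 15489 CPM in the other KC-LC libraries. PM-LC replicate 2 carried RNA of mesothelium and fibroblasts: a sum of 381 CPM over the mesothelium markers, against 14.7 and 34.1 CPM in PM-LCs 1 and 3 and 0.0480, 0.822 and 3.93 CPM in the KC-LCs. Results that rest on either library are given with and without it. The labels do not say whether the libraries of a group came from separate animals or flasks, so the p-values measure the spread between these libraries, which may be technical. In such bulk samples, fewer cells of a type and less RNA per cell cannot be told apart.

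The number of genes that separated the cultures depended on the test. Of 13126 genes tested with edgeR's quasi-likelihood test, 45 were higher in KC-LCs (0.343% of all tested) and 104 were higher in PM-LCs (0.792%) at a Benjamini-Hochberg adjusted p of 0.05, which makes 149 genes (1.14%). The differences were large, with a median absolute log2 fold change of 2.85 among the former and 4.56 among the latter, and the groups did not overlap for any of the 149 genes. Over all tested genes, 10.2% had all KC-LC libraries above all PM-LC libraries and 10.3% had the opposite order, and the median log2 fold change (KC-LC minus PM-LC throughout) was −0.04. At an unadjusted p under 0.05 there were 773 and 1070 genes. DESeq2 called 445 genes higher in KC-LCs and 648 genes higher in PM-LCs, with all of the 149 among them, and limma-voom 32 and 72. The number of calls also depended on single libraries. Without PM-LC replicate 2 there were 166 genes higher in KC-LCs (1.22% of the genes tested then) and 133 higher in PM-LCs (0.976%), whereas leaving out any other library left between 0 and 3 of the former and between 2 and 25 of the latter. All 45 and all 104 genes kept their direction whichever library was left out, but only C4b and Enpp5 passed the threshold in all 6 of these fits and Arg1 passed in 5 of them. For every other gene called below, the call was lost without at least 1 library, and without PM-LC replicate 2 it held unless stated. KC-LC replicate 1 was the highest library for 38 of the 45 genes higher in KC-LCs.

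Genes of large peritoneal macrophages were among the largest differences between the cultures. Of 26 listed genes 24 could be tested, 7 were higher in PM-LCs (Arg1, Cxcl13, Lrg1, Ltbp1, Naip1, Prg4 and Slpi) and none was higher in KC-LCs, next to 0.792% and 0.343% of all genes. Over the 24 genes the median was a log2 fold change of −6.02 beside −0.04 over all genes, and 21 were negative. Every PM-LC library was above every KC-LC library for 19 of them, next to 10.3% of all genes. Genes with hardly a read in KC-LCs passed the filter through the PM-LC libraries, which favours this order and a large median. The count of called genes rose to 9 without PM-LC replicate 2 and fell to 0 to 3 without any other library. The other tools called 15 (DESeq2) and 4 (limma-voom) of the 24 genes. Even so, the summed level of the list was a small part of that in the animal, at 1942, 5029 and 3826 CPM in PM-LCs 1 to 3 and 85647, 91788 and 85682 CPM in sorted PMs. KC-LCs had 819, 1026 and 1154 CPM. A large part of the sum in PM-LC replicate 2 was Saa3 and Serpinb2, which were not called with edgeR and were highest in that library. The list also shares Wt1 with the mesothelium markers, so the sum is not a level of peritoneal macrophages alone.

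Arg1, the arginase that turns arginine into ornithine, lies on chromosome 10 at 24915221 to 24927484 (GRCm38, minus strand) and measured 121, 184 and 279 CPM in PM-LCs 1 to 3. KC-LCs had 0.0960, 0 and 0.0252 CPM, which is 5 reads in the 3 libraries together. All PM-LC libraries were thus far above all KC-LC libraries, with a ratio of 4899 (95% counting interval 2099 to 15087) and an adjusted p of 0.0041 with edgeR. The adjusted p was 0.070 without KC-LC replicate 3. Sorted PMs had 227, 334 and 233 CPM and sorted KCs 0.200 to 1.01 CPM, so the PM-LCs held this gene at a level that overlapped with that of the sorted cells.

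Of the other called peritoneal genes, Ltbp1, Cxcl13 and Prg4 were detected in PM-LCs at a small share of their level in sorted PMs. Ltbp1, which anchors latent TGF-beta in the matrix, measured 13.6, 7.34 and 10.4 CPM in PM-LCs against 1 read in all KC-LC libraries (ratio 1264, counting interval 227 to 49917, adjusted p = 0.016 with edgeR) and 1671 to 2173 CPM in sorted PMs. Cxcl13, the chemokine that draws B cells to the serous cavities, measured 21.3, 2.09 and 19.3 CPM in PM-LCs and 1 read in KC-LCs (ratio 1753, interval 315 to 69241, adjusted p = 0.029), whereas sorted PMs had 4782 to 5926 CPM. Prg4, the lubricating proteoglycan lubricin, measured 20.9, 1.87 and 14.9 CPM in PM-LCs and 3 reads in KC-LCs (ratio 509.7, interval 174 to 2471, adjusted p = 0.032), next to 5394 to 5659 CPM in sorted PMs. PM-LC replicate 2, the library with mesothelial RNA, was the lowest PM-LC library for these 3 genes. Naip1, a cytosolic sensor of bacterial secretion needles whose close paralogs can share reads with it, measured 9.75, 12.4 and 15.1 CPM in PM-LCs and 2 reads in KC-LCs (ratio 768, interval 213 to 6342, adjusted p = 0.018). Lrg1, a secreted leucine-rich glycoprotein, had 2.33 to 4.20 CPM in PM-LCs and no read in KC-LCs, which makes it at least 40.5-fold higher against a floor of 3 reads per library (adjusted p = 0.032). Slpi, an inhibitor of leukocyte proteases, measured 25.2, 75.3 and 21.5 CPM in PM-LCs and 0.192, 1.52 and 0.731 CPM in KC-LCs (log2 fold change −5.66 ± 0.90 SE, adjusted p = 0.044), with its highest value in PM-LC replicate 2. Fitted log2 fold changes are not given here for genes with so few reads on 1 side, since they depend on the prior count. Where further sections give a fitted value for such a gene, its size is not a measured amount.

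**Figure D1:**
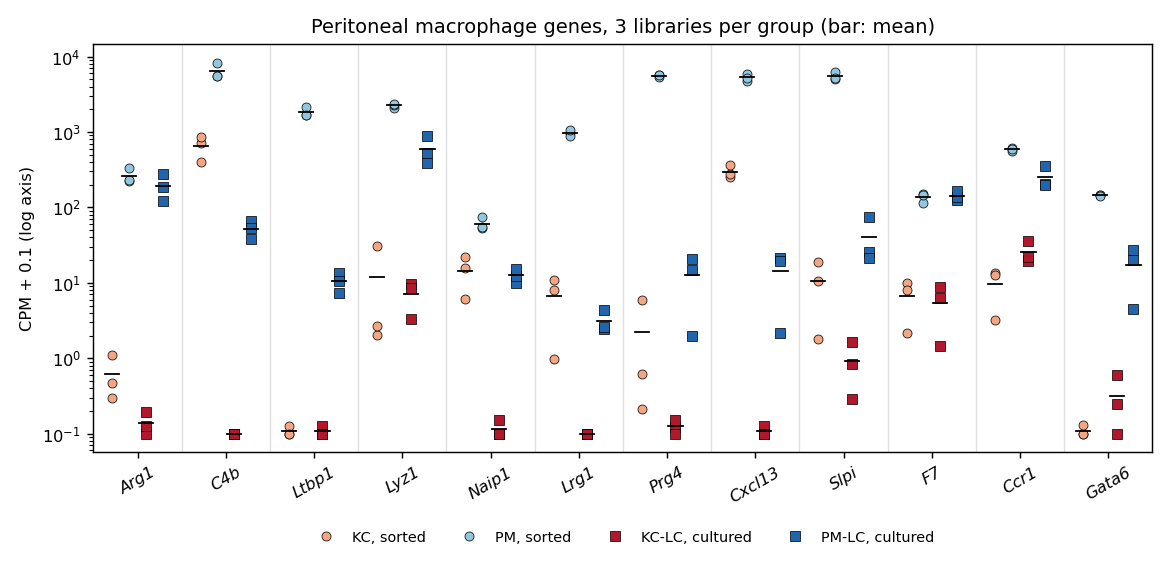
Genes known from peritoneal macrophages and other genes called higher in PM-LCs, with Gata6, in sorted KCs and PMs (circles) and in KC-LCs and PM-LCs (squares). Each point is 1 library, bars are means of 3, and the log axis shows CPM + 0.1. PM-LC points lie above all KC-LC points for every gene. For Ltbp1, Cxcl13, Prg4, C4b and Gata6 among others they lie far below sorted PMs, whereas Arg1 (121 to 279 CPM against 227 to 334 CPM) and F7 overlap with them.

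Gata6, the factor that defines large peritoneal macrophages, measured 4.36, 27.1 and 19.7 CPM in PM-LCs and 0, 0.149 and 0.504 CPM in KC-LCs. Every PM-LC library was above every KC-LC library, but the difference did not pass the threshold (log2 fold change −6.29 ± 1.29 SE, adjusted p = 0.073 with edgeR, and 0.080 without PM-LC replicate 2). The call depended on the tool, with an adjusted p of 6.6e-08 in DESeq2 and 0.22 in limma-voom. Sorted PMs had 139.9 to 147 CPM. PM-LC replicate 2 had the highest Gata6 level and also the highest sums of mesothelium and fibroblast markers, and the part of these cells in the Gata6 level was not tested. Alox15, the lipoxygenase of resident peritoneal macrophages, went the other way between libraries, with 60.3, 2.06 and 40.0 CPM in PM-LCs and 0.0240, 0 and 0.328 CPM in KC-LCs (adjusted p = 0.071 with edgeR, 0.00027 with DESeq2, and 0.018 with edgeR without PM-LC replicate 2). Fn1 (fibronectin), Saa3 and Serpinb2 were not called with edgeR (adjusted p = 0.088, 0.20 and 0.10), while DESeq2 called Fn1 (adjusted p = 0.0018) and gave no adjusted p for the other two. In PM-LCs they were at 99.2 to 716, 98.9 to 1984 and 17.6 to 529 CPM, against at most 4.29, 24.8 and 1.24 CPM in KC-LCs. The retinoic acid pathway, 11 genes tested, had no called gene with edgeR (2 higher in PM-LCs at an unadjusted p under 0.05, 2 with DESeq2 and 0 with limma-voom).

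Several genes that are not on the peritoneal list also separated the cultures, and some of them did not differ between the sorted cells. Enpp5, a membrane-bound member of the nucleotide pyrophosphatase family on chromosome 17 (44078813 to 44086567, plus strand), had the lowest adjusted p of the named genes. It measured 33.4, 28.7 and 30.9 CPM in PM-LCs and 0.816, 1.05 and 0.857 CPM in KC-LCs, a log2 fold change of −5.10 ± 0.28 SE (adjusted p = 0.0037). In sorted KCs it was at 20.1 to 68.2 CPM and in sorted PMs at 37.5 to 46.1 CPM, with overlapping ranges. Fabp7, a fatty acid binding protein, had the same pattern with 188, 172 and 196 CPM in PM-LCs, 2.04, 6.38 and 5.93 CPM in KC-LCs (log2 fold change −5.28 ± 0.47 SE, adjusted p = 0.016) and 118 to 237 CPM over both sorted groups. PM-LCs were thus near the sorted level of both genes and KC-LCs were below it. The adjusted p of Fabp7 was 0.078 without KC-LC replicate 2 and 0.081 without KC-LC replicate 3.

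C4b, which encodes complement component C4 and lies on chromosome 17 (34728380 to 34743882, minus strand), had no read in any KC-LC library and 65.5, 38.3 and 53.4 CPM in PM-LCs, so that it was at least 707-fold higher in PM-LCs (adjusted p = 0.0084). Sorted KCs had 394 to 847 CPM and sorted PMs 5457 to 8335 CPM. C4b reads can be split with its near copy C4a by the counting. Lyz1, a lysozyme gene nearly identical with Lyz2, measured 389, 872 and 533 CPM in PM-LCs and 3.22, 9.44 and 8.47 CPM in KC-LCs (log2 fold change −6.42 ± 0.58 SE, adjusted p = 0.016), while Lyz2 overlapped at 22319 to 33329 CPM in PM-LCs and 20193 to 47695 CPM in KC-LCs. F7, coagulation factor VII, was at 127, 136 and 164 CPM in PM-LCs and 1.37, 8.64 and 6.10 CPM in KC-LCs (log2 fold change −4.73 ± 0.65 SE, adjusted p = 0.032), and its PM-LC level overlapped with the 113 to 151 CPM of sorted PMs. Ccr1, a receptor for CC chemokines, was at 206, 198 and 349 CPM in PM-LCs and 19.3, 21.9 and 35.5 CPM in KC-LCs (log2 fold change −3.30 ± 0.36 SE, adjusted p = 0.020). Lbp, the lipopolysaccharide binding protein, had 4.35 to 8.48 CPM in PM-LCs and 2 reads in KC-LCs (ratio 345, interval 95.6 to 2852, adjusted p = 0.032), and Mst1r, the receptor of macrophage stimulating protein, 4.38 to 6.85 CPM against no read (at least 71.0-fold higher, adjusted p = 0.024).

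Mmp12, Mmp13, Ctsl, Timp2 and Cd36 were abundant genes higher in PM-LCs. Mmp12, the macrophage elastase, reached 19171, 16756 and 20153 CPM in PM-LCs against 3626, 5142 and 3265 CPM in KC-LCs (log2 fold change −2.23 ± 0.25 SE, adjusted p = 0.021, and 0.064 to 0.094 without any 1 library other than PM-LC replicate 2). Both cultures were far above the sorted cells, and there the order was reversed, with 98.8 to 547 CPM in KCs and 1.77 to 4.88 CPM in PMs. Mmp13, a collagenase, measured 1154, 659.9 and 1491 CPM in PM-LCs and 28.0, 19.9 and 87.4 CPM in KC-LCs (log2 fold change −4.61 ± 0.67 SE, adjusted p = 0.033) and was likewise higher in sorted KCs, at 12.4 to 18.3 CPM, than in sorted PMs, at 0 to 0.354 CPM. Ctsl, the lysosomal protease cathepsin L, was at 3393, 3460.5 and 3134 CPM in PM-LCs and 886, 989 and 867 CPM in KC-LCs (log2 fold change −1.87 ± 0.18 SE, adjusted p = 0.017), with overlapping ranges in the sorted cells. Among 47 lysosomal genes Ctsl was the only one called with edgeR (8 higher in PM-LCs at an unadjusted p under 0.05, 5 with DESeq2 and 1 with limma-voom), and 10 had all PM-LC libraries above all KC-LC libraries, next to 10.3% of all genes. Timp2, an inhibitor of these metalloproteases, was higher in PM-LCs too (1356 to 1669.7 CPM against 381 to 480.0 CPM, adjusted p = 0.022). Cd36, the receptor for oxidized lipoproteins and fatty acids, measured 5593, 2632 and 5506 CPM in PM-LCs and 258, 689.7 and 655 CPM in KC-LCs (log2 fold change −3.10 ± 0.48 SE, adjusted p = 0.040), in the same order as in sorted PMs (791 to 986 CPM) and KCs (129.5 to 238 CPM).

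No listed gene of Kupffer cells, in contrast, was called higher in the liver cultures. Of 24 listed genes 19 could be tested, the count higher in KC-LCs was 0 with edgeR (3 at an unadjusted p under 0.05, 1 with DESeq2 and 0 with limma-voom), and 3 were higher in PM-LCs, namely Vsig4, Folr2 and Clec1b, beside 0.343% and 0.792% of all genes tested. The median log2 fold change was −0.85. All KC-LC libraries were above all PM-LC libraries for 2 genes (Id1 and Cd163) and the opposite order held for 8, next to 10.2% and 10.3% of all genes. The 3 calls held without PM-LC replicate 2 and were lost without any of the other 5 libraries. Summed over the list, KC-LCs 1 to 3 had 2516, 2581 and 2413 CPM, PM-LCs 1 to 3 had 4397, 2296 and 3096 CPM, and sorted KCs had 25089, 47611 and 48013 CPM.

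Vsig4, the complement receptor CRIg on chromosome X (96247203 to 96293438, minus strand), measured 61.9, 16.1 and 101 CPM in PM-LCs and 0.144, 0.0249 and 0 CPM in KC-LCs, 7 reads in all (ratio 1084, counting interval 526 to 2695, adjusted p = 0.022 with edgeR and 0.18 with limma-voom). The adjusted p was 0.0067 without PM-LC replicate 2 and between 0.063 (without PM-LC replicate 1) and 0.12 (without KC-LC replicate 2) without another library. In the sorted cells it was the other way round, with 1699, 2804 and 3440.1 CPM in KCs and 663, 666 and 567 CPM in PMs. Folr2, a folate receptor of resident macrophages, measured 1429, 667 and 476 CPM in PM-LCs and 114, 106 and 38.5 CPM in KC-LCs (log2 fold change −3.32 ± 0.56 SE, adjusted p = 0.048). PM-LCs were thus above sorted PMs, which had 27.4 to 64.3 CPM. Clec1b (CLEC-2), which binds podoplanin, was at 13.1, 10.3 and 11.3 CPM in PM-LCs and 0.264, 0.448 and 1.34 CPM in KC-LCs (log2 fold change −4.08 ± 0.67 SE, adjusted p = 0.046), far below the 293 to 583 CPM of sorted KCs. All 3 genes therefore had an opposite order in culture and after sorting.

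Id3 and Nr1h3, which separate the sorted populations, were not called between the cultures. Id3, a regulator that blocks basic helix-loop-helix factors, lies on chromosome 4 (136143497 to 136145755, plus strand) and measured 804, 1165 and 853 CPM in KC-LCs and 894, 599 and 422 CPM in PM-LCs, with overlapping ranges (log2 fold change 0.56 ± 0.30 SE, adjusted p = 0.51). Sorted KCs had 628, 668 and 452 CPM and sorted PMs 6.45, 4.12 and 4.77 CPM. The KC-LC level was thus at or above that of sorted KCs, and the PM-LC level was far above that of sorted PMs. Nr1h3, the oxysterol receptor LXR-alpha, measured 22.3, 51.7 and 49.3 CPM in KC-LCs and 122, 56.2 and 44.3 CPM in PM-LCs (adjusted p = 0.51), next to 540.2 to 689 CPM in sorted KCs and 4.44 to 6.21 CPM in sorted PMs. For Slc40a1, the iron exporter ferroportin, KC-LCs had 359, 548 and 811 CPM and PM-LCs 392, 139 and 335 CPM, with overlapping ranges (adjusted p = 0.38), whereas sorted PMs had at most 0.327 CPM.

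**Figure D2:**
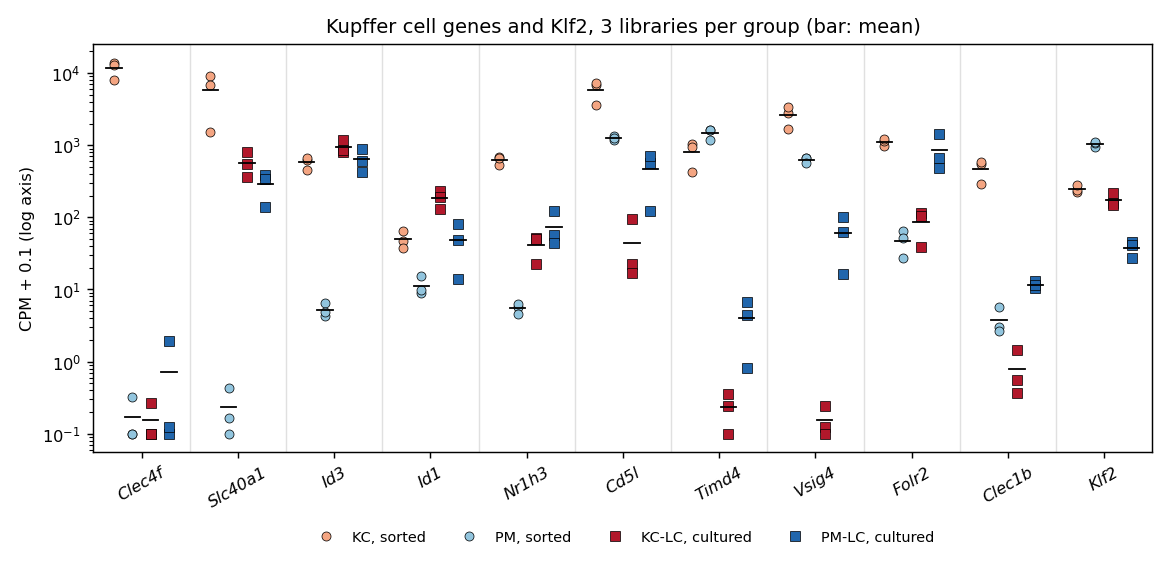
Genes of Kupffer cells, and Klf2, in sorted KCs and PMs (circles) and in KC-LCs and PM-LCs (squares). Each point is 1 library, bars are means of 3, and the log axis shows CPM + 0.1. Clec4f and Timd4 are near 0 in both cultures, Id3 and Nr1h3 overlap between the cultures, and Vsig4, Folr2 and Clec1b lie higher in PM-LCs.

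None of the other named Kupffer genes was called between the cultures with edgeR, and Clec4f, Timd4, Marco and Spic were near 0 in KC-LCs. Clec4f, the most specific surface lectin of Kupffer cells, had 8152 to 14047 CPM in sorted KCs but at most 0.168 CPM in KC-LCs and 1.81 CPM in PM-LCs, too few reads to be tested. Timd4, a receptor for phosphatidylserine, had 0 to 0.252 CPM in KC-LCs and 0.706 to 6.62 CPM in PM-LCs (adjusted p = 0.14 with edgeR and 0.0011 with DESeq2), and Marco, a scavenger receptor, 0 to 0.328 CPM and 1.14 to 2.07 CPM (adjusted p = 0.33). Cd5l, a secreted LXR target, measured 93.6, 22.6 and 16.7 CPM in KC-LCs and 563, 124 and 720.1 CPM in PM-LCs, without overlap and with an adjusted p of 0.12 with edgeR, 0.099 with limma-voom and 0.00011 with DESeq2. Spic was at most 1.44 CPM in either culture, against 116 to 248 CPM in sorted KCs. Id1, a target of BMP signaling, measured 234, 192 and 129 CPM in KC-LCs and 48.8, 81.9 and 13.7 CPM in PM-LCs (adjusted p = 0.19 with edgeR and 0.012 with DESeq2), and Cd163, the hemoglobin scavenger receptor, at least 7.13 CPM in KC-LCs and at most 6.53 CPM in PM-LCs (adjusted p = 0.32).

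Among the genes higher in KC-LCs, those of the cell cycle, the longest list, formed the largest listed group. Of 50 listed genes 49 had a positive log2 fold change, and the median was 2.89 beside −0.04 over all genes. For 44 of them all KC-LC libraries lay above all PM-LC libraries, next to 10.2% of all genes. Only 4 passed the threshold, namely Top2a, Bub1, Kif11 and Kif23, next to 0.343% of all genes tested. The levels were uneven between libraries, with a sum of 4403, 2079 and 1911 CPM in KC-LCs 1 to 3 and of 553, 987 and 549 CPM in PM-LCs 1 to 3. Without PM-LC replicate 2 there were 32 called genes (median 4.04), without any other library there was none, and without KC-LC replicate 1 the median was still 2.25. At an unadjusted p under 0.05 there were 42, DESeq2 called 37 and limma-voom 1. Sorted KCs had sums of 2467, 1383 and 1361 CPM and sorted PMs of 521, 505 and 509 CPM, in the same order as the cultures.

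Top2a, the topoisomerase that untangles chromosomes before division, measured 206, 66.2 and 97.9 CPM in KC-LCs and 5.17, 12.4 and 3.24 CPM in PM-LCs (log2 fold change 4.13 ± 0.66 SE, adjusted p = 0.044, and 0.10 to 0.13 without any 1 library other than PM-LC replicate 2). Bub1, a kinase of the spindle checkpoint, was at 74.5, 25.2 and 25.2 CPM in KC-LCs and 1.49, 3.75 and 1.27 CPM in PM-LCs (4.24 ± 0.67, adjusted p = 0.044). The spindle motor Kif11 measured 83.6, 26.2 and 48.8 CPM in KC-LCs and 4.26, 4.42 and 2.30 CPM in PM-LCs (3.84 ± 0.51, adjusted p = 0.029). Each was highest in KC-LC replicate 1, and the groups did not overlap. Kif23, a motor of the midbody in dividing cells, had 100.3, 32.6 and 59.0 CPM in KC-LCs and 6.72, 8.60 and 5.14 CPM in PM-LCs (3.22 ± 0.46, adjusted p = 0.032) and separated the sorted cells too, with 67.6 to 76.0 CPM in KCs and 4.68 to 7.21 CPM in PMs. Top2a and Kif11 were also called higher in sorted KCs (log2 fold change 2.15 and 2.17, adjusted p = 0.0089 and 0.046 with edgeR), whereas Bub1 was not called there. Mki67, the common proliferation marker, was at 67.6, 14.5 and 23.4 CPM in KC-LCs and 0.226, 10.4 and 1.82 CPM in PM-LCs, in the same order but not past the threshold (adjusted p = 0.32 with edgeR, 0.038 with DESeq2, and 0.074 without PM-LC replicate 2). Pcna, the clamp of DNA polymerases, was the 1 member below 0 and overlapped between the groups, with 106 to 142 CPM in KC-LCs and 108 to 151 CPM in PM-LCs (log2 fold change −0.01 ± 0.20 SE, adjusted p = 0.99).

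**Figure D3:**
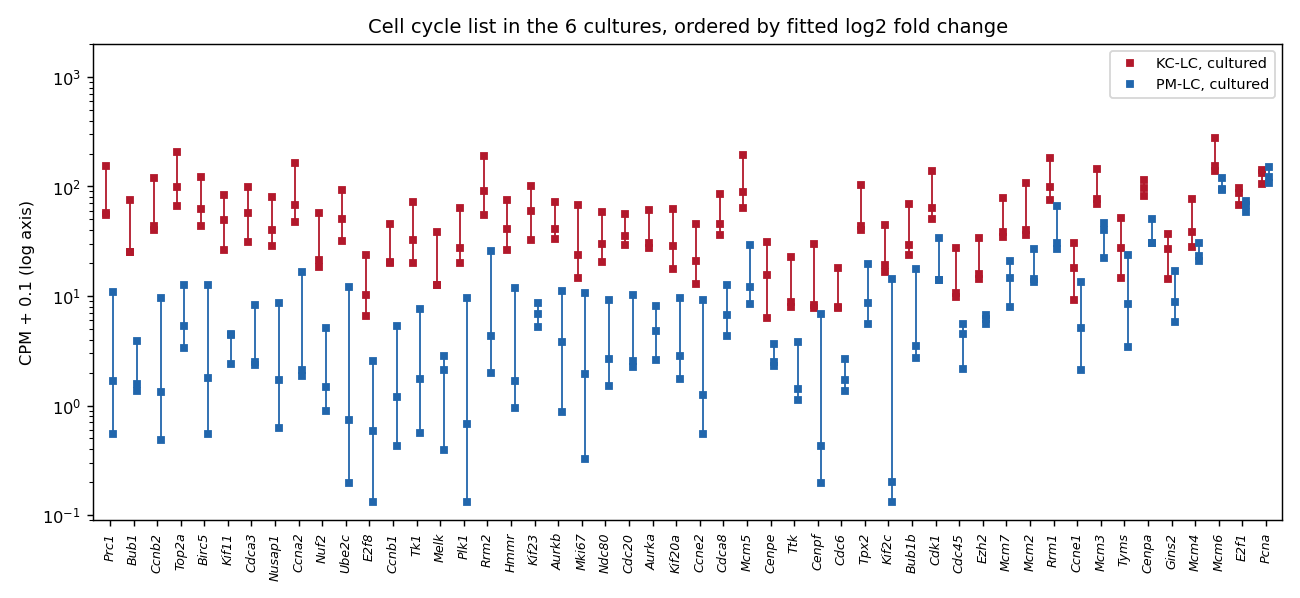
The 50 cell cycle genes ordered by log2 fold change, with 1 point per library and a line from the lowest to the highest library of each group, on a log axis of CPM + 0.1. KC-LC libraries lie above PM-LC libraries for 44 genes, and the groups converge at Pcna, the 1 gene with a negative fold change.

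The promoters of the 4 called cell cycle genes are shown for the motifs that cell cycle promoters are known to carry: a CCAAT box (CCAAT, or ATTGG on the other strand) and the cell cycle homology region (TTTGAA, or TTCAAA). The sequences are the 100 bases upstream of each start in RefSeq on GRCm38.p6, written 5′ to 3′ on the strand of the gene, with motif matches in capitals.
Bub1, chr2:127831860-127831959, minus strand: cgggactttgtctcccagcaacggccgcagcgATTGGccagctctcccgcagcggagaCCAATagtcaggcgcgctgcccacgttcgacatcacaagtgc
Kif11, chr19:37376282-37376381, plus strand: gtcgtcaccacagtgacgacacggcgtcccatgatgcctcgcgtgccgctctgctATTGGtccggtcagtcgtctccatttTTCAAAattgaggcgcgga
Kif23, chr9:61946800-61946899, minus strand: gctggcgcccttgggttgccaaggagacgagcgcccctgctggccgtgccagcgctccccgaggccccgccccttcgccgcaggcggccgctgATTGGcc
Top2a, chr11:99024190-99024289, minus strand: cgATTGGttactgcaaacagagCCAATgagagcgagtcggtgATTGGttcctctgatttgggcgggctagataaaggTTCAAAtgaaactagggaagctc
Every one of the 4 windows holds a CCAAT box in at least 1 orientation, and those of Kif11 and Top2a also hold TTCAAA. In the longer promoter windows of 250 bases upstream to 50 downstream, 23 of the 43 matched members of the list (53.5%) hold TTTGAA or TTCAAA, next to 20.2% of 27025 genes and 14.5% of 9865 tested genes. CCAAT or ATTGG is found in 32 of the 43 (74.4%), next to 41.1% and 43.0%. Both strands were searched, and neither motif contains the other, although matches may share an end letter. A match describes the letters of the window only.

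The other genes higher in KC-LCs had varied functions, and some were peritoneal genes in the animal. Klf2, a transcription factor of quiescent cells on chromosome 8 (72319033 to 72321656, plus strand), measured 217, 158 and 150.0 CPM in KC-LCs and 27.4, 45.1 and 41.0 CPM in PM-LCs (log2 fold change 2.19 ± 0.27 SE, adjusted p = 0.024, and 0.067 to 0.11 without any 1 library other than PM-LC replicate 2). KC-LCs were near sorted KCs, with 224 to 277 CPM, while PM-LCs were far below sorted PMs, with 946 to 1095 CPM, so that the order of culture was opposite to that of the sorted cells. Itgb7, an integrin chain of homing leukocytes, was at 157, 86.4 and 78.0 CPM in KC-LCs and 5.65, 7.16 and 1.42 CPM in PM-LCs (4.49 ± 0.64, adjusted p = 0.032), and Alox5, the first enzyme of leukotriene synthesis, at 51.2, 43.7 and 31.8 CPM and 5.30, 10.3 and 9.57 CPM (2.31 ± 0.35, adjusted p = 0.038). In the sorted cells Alox5 was higher in PMs (534, 629 and 519.7 CPM against 0.679 to 17.2 CPM in KCs), and Itgb7 had a log2 fold change of −1.29 ± 0.33 SE (adjusted p = 0.029), which is inside the limit of 1.5 used for sorted genes. Emb (embigin), which escorts lactate transporters to the membrane, and Lifr, the receptor of leukemia inhibitory factor, had an order opposite to that of the sorted cells, with log2 fold changes of 2.26 ± 0.31 SE (adjusted p = 0.032) and 2.26 ± 0.34 SE (adjusted p = 0.037) in culture and of −3.06 and −2.42 in the sorted cells.

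Gas6, which bridges phosphatidylserine on dying cells to the Axl and Mertk receptors, was the most abundant of the named genes higher in KC-LCs, with 1867, 1778 and 1427 CPM against 793, 588 and 567 CPM in PM-LCs (log2 fold change 1.37 ± 0.22 SE, adjusted p = 0.043, and 0.061 without PM-LC replicate 2). Sorted cells had it at 13.1 to 33.6 CPM in KCs and 3.74 to 9.22 CPM in PMs, so both cultures were above either. Gpr141, an orphan receptor of myeloid cells, measured 34.7, 24.1 and 32.4 CPM in KC-LCs and 1.84, 2.55 and 0.886 CPM in PM-LCs (4.10 ± 0.46, adjusted p = 0.021). Aldoc, a glycolytic aldolase, was at 236, 154 and 175 CPM in KC-LCs and 54.3, 59.5 and 51.0 CPM in PM-LCs (1.77 ± 0.22, adjusted p = 0.024). In the same list of 34 hypoxia and glycolysis genes, Hilpda, which protects lipid droplets, was higher in PM-LCs with 232, 197 and 183 CPM against 42.8, 75.1 and 48.1 CPM (−1.89 ± 0.26, adjusted p = 0.032). In that list 20 genes were above and 14 below 0.

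Set against the sorted cells, a small share of either side was called again in culture. How far this share differed between both sides depended on the library set and the tool. In the animal 1270 genes were higher in KCs (9.17% of 13842 tested) and 867 were higher in PMs (6.26%), with the adjusted p limit of 0.05 joined to a minimum log2 change of 1.5 either way. Of the 1270 KC genes 928 were tested in culture. Of these, 17 were higher in KC-LCs (1.83%, beside 0.343% of all genes) and 18 were higher in PM-LCs (1.94%, beside 0.792%). The median culture log2 fold change of these 928 genes was −0.01. Of the 867 PM genes 731 were tested, with a median of −0.36. Of these, 46 were higher in PM-LCs (6.29%, beside 0.792% of all genes) and 6 were higher in KC-LCs (0.821%, beside 0.343%). In terms of order alone, 27.6% of these 731 genes had all PM-LC libraries above all KC-LC libraries, next to 10.3% of all genes, and 20.5% of the 928 KC genes had all KC-LC libraries on top, next to 10.2%. The opposite order held for 9.03% of the 731 genes, next to 10.2%, and for 15.2% of the 928 genes, next to 10.3%. Without PM-LC replicate 2, 65 of 956 KC genes and 57 of 750 PM genes were called in the same direction and 22 and 12 in the opposite one. DESeq2 called 147 and 157 genes in the same direction, and a model of all 24 libraries 77 and 74. The larger count on the peritoneal side thus held with DESeq2, but not without PM-LC replicate 2 or in the model of all 24 libraries. The set of KC genes was larger than that of PM genes in each of these fits, so the counts alone do not compare shares. Without PM-LC replicate 2 the share of tested genes was still larger on the peritoneal side (57 of 750 against 65 of 956). Over 12147 genes tested in both, the log2 fold changes of the sorted and the cultured cells had a Pearson r of 0.19 and a Spearman rho of 0.09, as a description across genes, which are not independent. Seen from the cultures, 46 of the 104 genes higher in PM-LCs were PM genes, 18 were KC genes, 31 were neither and 9 were not tested. Of the 45 genes higher in KC-LCs, 17 were KC genes, 6 were PM genes, 19 were neither and 3 were not tested.

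**Figure D4:**
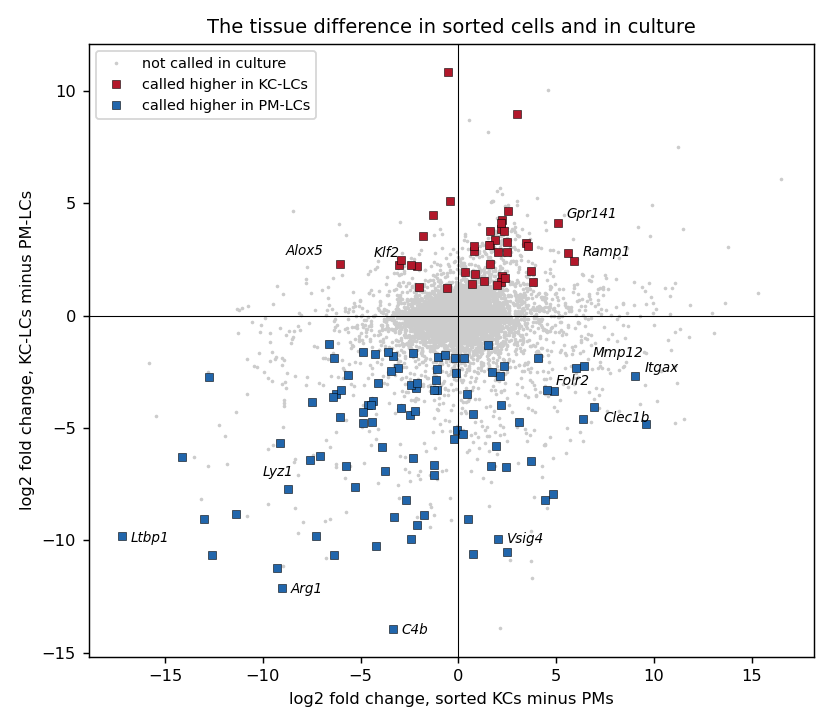
Log2 fold change of KCs against PMs in the sorted cells (horizontal) and of KC-LCs against PM-LCs in culture (vertical), 1 point per gene tested in both, with the called culture genes coloured. The lower left corner holds the peritoneal genes kept in PM-LCs, such as Arg1, and the lower right corner holds Vsig4, Clec1b and Folr2, which are Kupffer genes in the animal and were higher in PM-LCs.

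The difference between both contrasts was also tested gene by gene, in a model of the 12 sorted and cultured libraries. The interaction passed an adjusted p of 0.05 for 1778 of 15407 genes, of which 608 (3.95%) had a more positive difference in culture and 1170 (7.59%) a more negative one. Id3 (interaction −6.29 on the log2 scale, adjusted p = 1.5e-05), Nr1h3 (−7.71, adjusted p = 2.6e-05) and Slc40a1 (−14.41, adjusted p = 7.4e-05) were among the latter, as were Vsig4 (adjusted p = 6.7e-05) and Folr2 (adjusted p = 7.7e-05). Klf2 (4.26, adjusted p = 2.6e-05) and Gata6 (7.19, adjusted p = 0.020) were among the former. The sizes of the terms of Slc40a1 and Gata6 depend on the prior count, since sorted PMs had few reads of Slc40a1 and KC-LCs few of Gata6. For Arg1 (adjusted p = 0.062), F7 (adjusted p = 0.84), Cd36 (adjusted p = 0.45), Lyz1 (adjusted p = 0.61) and Kif23 (adjusted p = 0.77) the interaction did not pass the threshold.

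Markers of other cells differed mainly between the PM-LC libraries. Over the 15 mesothelium markers found in the table, of 16 listed, PM-LC replicate 2 had 381 CPM, and 5 members were at 0 in all KC-LC libraries. Upk1b, a uroplakin of mesothelium, measured 5.10, 154 and 7.62 CPM in PM-LCs and 0, 0 and 1.29 CPM in KC-LCs, and Msln (mesothelin) 1.00, 25.9 and 1.14 CPM and 0, 0 and 0.227 CPM. All 7 tested mesothelium markers were above the KC-LCs in every PM-LC library, next to 10.3% of all genes. With few reads in KC-LCs, a marker could pass the filter almost only through the PM-LC libraries, so this order was largely set by the filter. None of the 7 was called with edgeR (7 at an unadjusted p under 0.05, 3 with DESeq2 and 0 with limma-voom). The fibroblast markers summed to 48.3, 3399 and 684 CPM in PM-LCs and to 0.120, 2.19 and 50.3 CPM in KC-LCs, with Col1a1 (type I collagen) at 2.07, 649 and 117 CPM in PM-LCs and at most 3.05 CPM in KC-LCs. None of the 11 tested fibroblast markers was called with edgeR (9 at an unadjusted p under 0.05, 6 with DESeq2 and 0 with limma-voom). When the summed mesothelium and fibroblast level was added to the model, no gene was called in either direction (242 and 337 at an unadjusted p under 0.05). The mesothelium sum was higher in every PM-LC library than in every KC-LC library, so this covariate largely followed the group. With so few libraries the model cannot tell the marker level from the group, and the loss of calls does not show what other cells contribute. The fitted log2 fold changes of several genes stayed about as large. They were −11.62 for Arg1, −14.67 for C4b (for both the size depends on the prior count) and −5.18 for Enpp5, each with an adjusted p of 0.067, and −1.85 for Ctsl (adjusted p = 0.53). That of Gata6 went from −6.29 to −3.02 (adjusted p = 0.94). Of the genes higher in PM-LCs, 34 of 104 had their highest level in PM-LC replicate 2, 19 in replicate 1 and 51 in replicate 3.

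**Figure D5:**
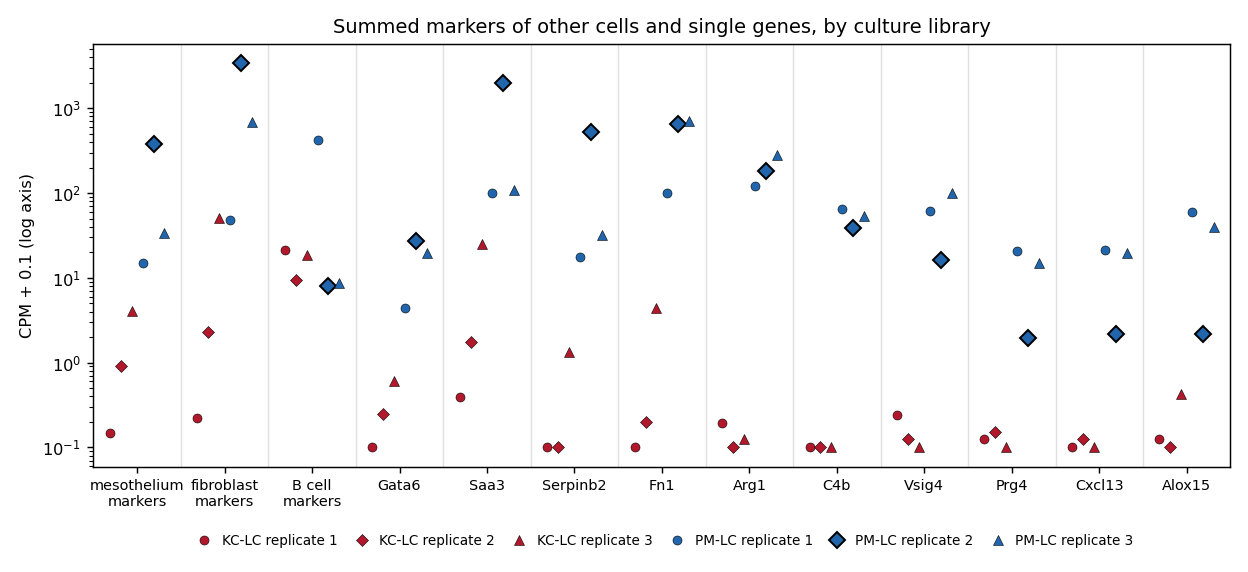
Summed CPM of mesothelium, fibroblast and B cell markers and CPM of single genes in the 6 cultured libraries, on a log axis of CPM + 0.1, with PM-LC replicate 2 outlined as a diamond. Saa3 and Serpinb2 are highest in PM-LC replicate 2, as the mesothelium (381 CPM) and fibroblast (3399 CPM) sums are, whereas Prg4, Cxcl13 and Alox15 are lowest there and Arg1 and C4b are at similar levels in all PM-LC libraries.

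Markers of further lineages were uneven between the PM-LC libraries too. Stellate, pericyte and smooth muscle markers summed to 3.97, 716 and 136 CPM in PM-LCs and to at most 4.06 CPM in KC-LCs, in the same order over the PM-LC libraries as the fibroblast markers. B cell markers summed to 426, 7.98 and 8.56 CPM in PM-LCs and 9.29 to 21.0 CPM in KC-LCs, and the immunoglobulin light chain gene Igkc, with no read in KC-LCs, had 150.5 CPM in PM-LC replicate 1 and at most 2.46 CPM in the other PM-LC libraries. Endothelial markers summed to 31.2 to 46.3 CPM in KC-LCs and 21.1 to 43.6 CPM in PM-LCs, and hepatocyte and erythroid markers to at most 2.24 and 2.40 CPM in any cultured library. The T and NK cell sum (95.9 to 192 CPM in KC-LCs and 263 to 452 CPM in PM-LCs) was almost entirely Il7r, which cultured macrophages can express, at 95.1 to 192 CPM and 263 to 451 CPM. Of the stellate and smooth muscle, bile duct, endothelium, hepatocyte, B cell, T and NK cell, neutrophil, mast cell, dendritic cell and monocyte markers none was called with edgeR (at an unadjusted p under 0.05 at most 4 of a list in 1 direction, with DESeq2 at most 3 and with limma-voom 0). In the eosinophil list Siglecf was called, at 17.2 to 22.8 CPM in PM-LCs against 3.10 to 5.51 CPM in KC-LCs (adjusted p = 0.032). The part of eosinophils in this difference was not tested.

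Some lists leaned to 1 direction without a call. Of 25 cholesterol synthesis genes 23 were positive, with a median of 0.67, and 17 had all KC-LC libraries above all PM-LC libraries, next to 10.2% of all genes. None of them was called with edgeR (10 at an unadjusted p under 0.05, 3 with DESeq2 and 0 with limma-voom). Their sum was 1709.6, 1255 and 1425 CPM in KC-LCs and 801, 959.9 and 1104 CPM in PM-LCs. Stard4, which carries cholesterol between membranes, was closest to the threshold at 13.3 to 26.9 CPM in KC-LCs and 5.13 to 7.95 CPM in PM-LCs (adjusted p = 0.075 with edgeR and 0.00051 with DESeq2), and Insig1, the sterol-regulated anchor of SREBP, had 90.2 to 97.5 CPM and 43.2 to 66.5 CPM (adjusted p = 0.12 with edgeR and 0.013 with DESeq2). Of 31 interferon-stimulated genes 29 were negative with a median of −0.84 (−0.45 without KC-LC replicate 1), and none was called with edgeR (6 at an unadjusted p under 0.05, 4 with DESeq2 and 0 with limma-voom). Their sum was 813, 3745 and 3001 CPM in KC-LCs and 6539, 5883 and 3131 CPM in PM-LCs, with overlapping ranges. The 17 genes of LXR targets and lipid efflux had no call with edgeR, although 5 lay without overlap higher in PM-LCs, next to 10.3% of all genes (7 at an unadjusted p under 0.05, 5 with DESeq2 and 0 with limma-voom). Their sum was 4777 CPM in KC-LC replicate 1, 19535 and 21326 CPM in the other KC-LC libraries and 19329 to 43114 CPM in PM-LCs.

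The further lists given here had either no call or 1 to 3 calls with edgeR, and those with a call had more with DESeq2. Over all genes, edgeR called 0.343% higher in KC-LCs and 0.792% higher in PM-LCs. In the complement list C4b, Itgax (complement receptor 4 alpha chain) and Vsig4 were higher in PM-LCs among 20 tested, with a median of −1.01 (10 at an unadjusted p under 0.05, 6 with DESeq2 and 2 with limma-voom), and Itgax measured 291, 335 and 521 CPM in PM-LCs and 31.0, 66.0 and 83.2 CPM in KC-LCs (log2 fold change −2.68 ± 0.42 SE, adjusted p = 0.044). In the coagulation list F7 was higher in PM-LCs and Gas6, a relative of the anticoagulant protein S, in KC-LCs, and 18 of 21 genes were negative with a median of −1.71 (12 higher in PM-LCs at an unadjusted p under 0.05, 9 with DESeq2 and 1 with limma-voom). This list shares F5, F10, Serpinb2, Thbs1 and Selp with the large peritoneal list, so its lean partly repeats the result there. The limit given there for genes with hardly a read in KC-LCs applies here too. Scavenger and apoptotic cell receptors and their ligands were split, with Gas6 higher in KC-LCs and Cd36 in PM-LCs, and 5 and 9 of 20 genes without overlap in these directions, next to 10.2% and 10.3% of all genes. DESeq2 called 4 and 8 of them. Mfge8, another bridge to dying cells, measured 195 to 671 CPM in KC-LCs and 1958 to 4248 CPM in PM-LCs. It did not pass with edgeR (adjusted p = 0.077), nor did Msr1 (adjusted p = 0.073) or Scarb1 (adjusted p = 0.065). DESeq2 called all 3 (adjusted p = 2.0e-05, 7.5e-05 and 0.00027). In that fit Mfge8 and Msr1 were higher in PM-LCs (log2 fold change −2.54 and −0.90), whereas Scarb1 was higher in KC-LCs (0.95). Among 18 eicosanoid enzymes Alox5 was higher in KC-LCs and Ephx2, the soluble epoxide hydrolase, in PM-LCs, where it had 1.91 to 8.86 CPM against no read (at least 69.5-fold higher, adjusted p = 0.044). Among 31 macrophage transcription factors Klf2 was higher in KC-LCs and Bhlhe40, a repressor that peritoneal macrophages need to divide, in PM-LCs, at 353, 291 and 477 CPM against 148, 111 and 102 CPM (−1.64 ± 0.26, adjusted p = 0.041). Of the 11 MHC class II genes 9 were positive, with a median of 0.95 (0.64 without PM-LC replicate 2), and none was called with edgeR (1 in each direction at an unadjusted p under 0.05, 0 and 1 with DESeq2 and 0 with limma-voom). Their sum leaned the other way, with 5172, 8127 and 11927 CPM in KC-LCs and 15524, 10335 and 14558 CPM in PM-LCs, and the ranges overlapped. Of the 13 osteoclast and fusion genes 11 were negative, with a median of −0.86 and no call with edgeR (5 higher in PM-LCs at an unadjusted p under 0.05, 4 with DESeq2 and 0 with limma-voom). The lists of small peritoneal macrophage genes, iron and heme handling, cytokines, toll-like receptors, Fc receptors, metallothioneins with NRF2 targets, and immediate early with heat shock genes had no call with edgeR either (at most 3 of a list in 1 direction at an unadjusted p under 0.05, at most 2 with DESeq2 and 0 with limma-voom).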

How the data were processed

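RNA sequencing of sorted and cultured mouse macrophages was analysed, with 3 libraries per group. The authors made cDNA libraries with SMARTer Ultra Low and Nextera XT kits, trimmed single reads with Trimmomatic, aligned them with STAR to mm10 and deposited raw read counts per gene with no filter or normalization. The versions differ between the methods and the submitters' processing notes, which name Trimmomatic 0.36 and STAR 2.5.2b and a human build, although the identifiers are those of mouse genes. The strand setting of the counting is not given in the sources used here. Symbols and coordinates came from GENCODE on GRCm38 by Ensembl identifier, and promoters from RefSeq on GRCm38.p6.

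The 3 KC-LC libraries were compared with the 3 PM-LC libraries in R 4.3.3 with edgeR 4.0.16 (TMM, filterByExpr with a minimum count of 10, quasi-likelihood test, two-sided, Benjamini-Hochberg adjustment over all genes tested). A gene was called at an adjusted p of 0.05. Sorted cells were compared in the same way with an added absolute log2 fold change of 1.5, and the interaction was fitted over these 12 libraries. An exact permutation test of 3 against 3 libraries cannot go below 0.1 and was not used. Gene lists, thresholds and named genes (listed genes, and the called genes with the largest changes at an average log2 CPM above 3) were chosen with earlier results of these data known. A few genes were named after their values were seen: Apoe, Igkc and Il7r. Counting intervals are 95% Poisson intervals of the pooled reads and cover counting error only, and the floor is 3 reads per library. Where every library of the lower group was below this floor, its level could not be told from 0. The ratio itself is then not a measured amount, and the lower end of the interval is the firmer figure. Values after ± are SEs of the fit.

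The alternatives were limma-voom (limma 3.58.1), DESeq2 1.42.0, RLE factors, other filters, robust fitting, larger models, the replicate number as a block, a covariate of mesothelium and fibroblast markers, and leaving out each library in turn. In simulated counts for the cultures, 47 of 100 genes changed 4-fold and 78 of 100 changed 16-fold were called, with 6 unchanged genes.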

Additional observations from a re-analysis of the deposited data

Results flagged for a closer look

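The difference between both tissues was not the same after culture and after sorting for 1778 genes, by a test of the interaction over the 12 sorted and cultured libraries (edgeR, adjusted p of 0.05). The values that follow are interaction terms on the log2 scale, the KC-LC minus PM-LC difference less the KC minus PM difference. For genes with few or no reads in a group (Arg1, C4b, Clec4f, Cped1, Cxcl13, Ephx2, Gata6, Lbp, Mmp13, Naip1, Slc40a1 and Vsig4 among them) the size of the term depends on the prior count. Clec4f had too few reads to be tested between the cultures and entered this fit through the sorted KCs.

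Among genes of Kupffer cells the term was −20.53 for Clec4f, −14.41 for Slc40a1, −12.02 for Vsig4, −11.10 for Clec1b, −7.89 for Folr2, −7.71 for Nr1h3, −6.29 for Id3, −5.64 for Cd5l, −3.95 for Timd4 and −3.58 for Cd163. Their difference in culture was smaller than that in the sorted cells or had the opposite direction, apart from Timd4, for which both favoured the peritoneal side. The sorted Timd4 difference, which is part of its term, is not a result, since sorted KCs were gated on TIM-4. Scarb1 (−1.41), a lipoprotein receptor, Oas3 (−3.52), an antiviral sensor, and Siglecf (−8.42), a sialic acid binding lectin, were also more negative in culture.

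The matrix proteases Mmp12 (−8.71) and Mmp13 (−11.05) and the integrin Itgax (−11.78) were higher in sorted KCs and in PM-LCs. C4b (−10.60), Cxcl13 (−6.10), Naip1 (−7.23) and Lbp (−5.58) were peritoneal genes in both settings. Their fitted difference was larger in culture, but KC-LCs had at most 2 reads of each there, so these terms do not measure by how much. Enpp5 (−5.10), Fabp7 (−5.56), Ctsl (−1.76), Hilpda (−2.25) and Ephx2 (−11.37) were not called between the sorted cells.

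The term was positive for Gata6 (7.19), Ccr1 (2.62), Timp2 (1.46) and Cped1 (10.08), whose fitted difference was on the peritoneal side in both settings and smaller in culture. Between the cultures Gata6 was not called with edgeR. Klf2 (4.26), Alox5 (8.31), Emb (5.25) and Lifr (4.61) were called higher in sorted PMs and in KC-LCs. Itgb7 (5.71) was higher in KC-LCs and had a negative difference in the sorted cells that was inside the limit of 1.5. Insig1 (1.71) and Stard4 (1.72), both of cholesterol metabolism, were more positive in culture.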

How the results depend on the processing

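The counts of genes higher in KC-LCs and of genes higher in PM-LCs (45 and 104) ranged from 0 to 166 and from 2 to 133 when 1 library was left out. They were 445 and 648 with DESeq2, 105 and 190 with no filter, 2 and 14 in a model of the 12 cultured libraries and 202 and 245 in a model of all 24. With the marker covariate, which largely followed the group, they were 0 and 0. With limma-voom (32 and 72), RLE factors (44 and 104), a filter of 1 CPM (61 and 117), robust fitting (44 and 95) and a fold change limit (39 and 102) they stayed within 1.5 times.

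With the replicate number as a block the counts were 22 and 79. Same-numbered libraries deviated together with correlations of 0.03, 0.10 and 0.23 only, so they share a number and are not known to be pairs. Kept genes under the block numbered 6 on the KC side and 35 on the PM side.

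The numbers of sorted KC and PM genes called in the same direction in culture (17 and 46) ranged from 0 to 65 and from 1 to 57 without 1 library. They were 7 and 35 with limma-voom, 147 and 157 with DESeq2, 35 and 71 with no filter, 0 and 6 in the model of 12 libraries, 77 and 74 in that of 24, and 0 and 0 with the covariate. The 1270 genes higher in sorted KCs and 867 genes higher in sorted PMs ranged from 822 to 1429 and from 567 to 1322 without 1 library, and 1848 and 1555 passed by adjusted p alone. With DESeq2 they were 1547 and 970, and in the model of 24 libraries 1496 and 1039. The count of genes whose tissue difference differs between sorted cells and cultures was 2866 with DESeq2 and 1786 without PM-LC replicate 2 (an alternative added after the data were seen). The log2 fold change of Pcna (KC-LC minus PM-LC) turned to 0.0072 with no filter and 0.0053 in the model of 12 libraries, and ranged from −0.10 to 0.12 without 1 library. The cause of these changes was not tested.

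Precision was limited by 3 libraries per group, and at this depth genes with fewer than 3 reads in a library could not be told from 0.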
